A study of Homo sapiens with 2 samples.

Results

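The TRiC/CCT chaperonin subunits are the 8 rows of the deposited expression table whose gene symbol is TCP1, CCT2, CCT3, CCT4, CCT5, CCT6A, CCT7 or CCT8, out of 13075 rows in all. RNA recovered with an anti-FLAG antibody from HEK293 cells, a transformed human embryonic kidney line, was compared with input RNA of the same transfected line taken without an antibody. The cells of both libraries, at passage 15, expressed from a transfected construct the R338W mutant of TOP3B with a FLAG tag. TOP3B is a topoisomerase with both DNA and RNA as substrates, R338W is known as a form that stays trapped on nucleic acid, and the series was designed to find the RNAs that hold such cleavage complexes. The labels do not say whether the cells were a stable line or a transient transfection. There was 1 RNA immunoprecipitation (RIP) library and 1 input library, so each comparison rests on 2 single libraries, replicate error is unknown and no p-value is given. No control RIP from untagged cells was analysed here, so RNA held by TOP3B and RNA carried along with the beads or antibody cannot be told apart.

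TRiC, also called CCT, is the chaperonin of the eukaryotic cytosol. It is a cage of 2 stacked rings, each built from 1 copy of all 8 related subunits, that closes over a newly made protein while ATP is hydrolysed. Actins, tubulins and many WD40-repeat proteins depend on it to fold, and prefoldin and phosducin-like proteins deliver or release such clients. The subunits share an ATP-binding equatorial domain and differ in the apical domain that touches the client.

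The coding sequences of the subunits are shown around the phosphate-binding loop that the family shares, because these bases carry the best-kept part of the family and show how far the mRNAs differ from each other where the proteins are most alike. The capitals mark the 5 codons of the loop, and the 45 bases of each are from GENCODE release 29 transcripts on GRCh38, 5′ to 3′ in the sense of the mRNA.
TCP1 (chr6:159785989-159787778, minus strand): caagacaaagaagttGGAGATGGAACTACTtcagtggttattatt
CCT2 (chr12:69587944-69587988, plus strand): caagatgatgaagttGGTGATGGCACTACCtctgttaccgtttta
CCT3 (chr1:156333548-156333592, minus strand): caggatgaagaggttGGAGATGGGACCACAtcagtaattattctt
CCT4 (chr2:61880329-61880373, minus strand): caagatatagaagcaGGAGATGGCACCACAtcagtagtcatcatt
CCT5 (chr5:10254799-10255959, plus strand): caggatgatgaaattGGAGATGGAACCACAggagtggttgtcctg
CCT6A (chr7:56054417-56054461, plus strand): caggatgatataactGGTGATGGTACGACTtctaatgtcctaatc
CCT7 (chr2:73240532-73243036, plus strand): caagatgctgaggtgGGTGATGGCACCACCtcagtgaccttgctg
CCT8 (chr21:29067616-29067660, minus strand): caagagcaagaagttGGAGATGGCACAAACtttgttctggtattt
The stretches of TCP1, CCT5 and CCT7 cross an exon junction, so their coordinates include an intron. The first 4 codons encode the same residues in all 8, and the last encodes threonine in 7 of them, CCT8 being the exception. Among the 28 pairs of subunits, 10 to 14 of the 15 loop bases and 24 to 35 of the 45 bases were identical. No 50-base stretch of 1 subunit's transcript was found in a transcript of another subunit, so a fragment of 50 or more matching bases could be told apart between them.

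In the values as deposited, the chaperonin mRNAs were close to equal in the RIP and the input, except CCT3, which was higher in the RIP. Levels are in FPKM (fragments per kilobase of transcript, scaled by library size), a unit that was inferred from the values because the table does not name it. Ratios are log2((RIP + 1)/(input + 1)). Of the subunits 7 lay within 1.25-fold of the input, and 5 of these within 1.1-fold. Among all 11990 genes tested, those reaching 5 FPKM in either library, 42.6% lay within 1.25-fold and 18.7% within 1.1-fold. The subunit counts depend on the scaling. After centring on the median gene, CCT4 (-0.33) lay past 1.25-fold and CCT8 (-0.19) past 1.1-fold. After rescaling to nuclear coding genes without TOP3B, CCT4 (-0.37) and CCT6A (-0.36) lay past 1.25-fold, and CCT8 (-0.23) and CCT7 (-0.14) past 1.1-fold. None of the 8 was 2-fold apart in either direction, where 4.90% of all tested genes were past that limit upwards in the RIP and 2.50% downwards. CCT3 alone was at least 1.5-fold higher and 0 subunits were at least 1.5-fold lower, where 19.9% and 10.2% of all tested genes lay. The median log2 ratio of the 8 was 0.03, with a range of -0.20 to 0.69, beside a median of 0.13 and quartiles of -0.25 and 0.50 over all tested genes, of which 58.7% had ratios above 0 and 41.2% below. Thus 7 of the 8 lay below the median gene and CCT3 above it, and the family median was -0.10 after centring on the median gene.

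**Figure D1:**
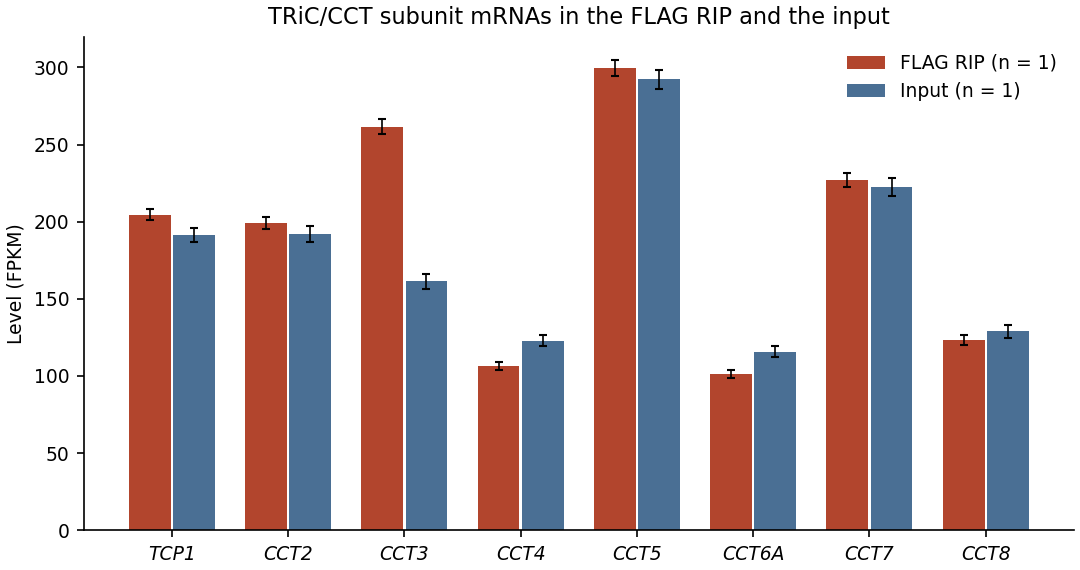
Level of each subunit mRNA in FPKM (vertical axis, from 0) in the FLAG RIP and the input library, 1 library each. Error bars are approximate 95% counting intervals from estimated fragments, not replicate error. CCT3 is the subunit with the widest gap, at 261 FPKM in the RIP, against 161 FPKM in input RNA.

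The depth behind these values was high enough that counting error is small. The table holds no counts, and totals of about 24900000 fragments (RIP) and 15300000 fragments (input) were estimated from the spacing of low values. At those depths a subunit rested on about 5647 to 13637 RIP fragments and 3626 to 8183 input fragments. The 95% counting intervals of the log2 ratios had half-widths of 0.04 to 0.06. They cover counting error only and leave out the variation between experiments, which cannot be measured here. On that narrow measure 2 intervals covered a ratio of 0, those of CCT5 and CCT7, while 3 lay above 0 and 3 below. These counts hold for the values as deposited, since 7 of the 8 ratios were below 0 after centring on the median gene, TCP1 at -0.03 and CCT2 at -0.08 among them.

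CCT3, the gamma subunit, had 261 FPKM in the RIP, against 161 FPKM in input RNA. This is a log2 ratio of 0.69, or 1.62-fold, with a counting interval of 0.64 to 0.74. The gene (ENSG00000163468.14, GRCh38 chromosome 1, 156308968 to 156367873, minus strand) thus stood 0.60 log2 units above the next subunit. Of all tested genes 14.3% had a ratio as high or higher, as had 21.0% of the 414 other coding genes whose mean log2 level lay within the range of the subunits. CCT3 therefore stands apart from its own complex, but a ratio of this size was common in the libraries.

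Subunits of the complex are known, largely from work on yeast and purified complexes, to differ in ATP affinity, with TCP1, CCT2, CCT4 and CCT5 on the side of the ring that binds ATP more tightly. CCT5, the epsilon subunit, had the highest level in both libraries, with 299.6 FPKM in the RIP, against 292 FPKM in input RNA (ENSG00000150753.11, chromosome 5, 10249921 to 10266412, plus strand). Its log2 ratio was 0.04. TCP1, the alpha subunit that gave the complex its name, had 205 FPKM in the RIP, against 191 FPKM in input RNA, for a log2 ratio of 0.10 (ENSG00000120438.11, chromosome 6, 159778498 to 159789749, minus strand). It was the highest ratio after CCT3, and its counting interval, 0.05 to 0.14, was the only interval of the 8 to cover the median of all tested genes. CCT2, the beta subunit, had 199 FPKM in the RIP, against 192 FPKM in input RNA, for a log2 ratio of 0.05 (ENSG00000166226.12, chromosome 12, 69585334 to 69601570, plus strand). CCT4, the delta subunit, had 106 FPKM in the RIP, against 123 FPKM in input RNA (ENSG00000115484.14, chromosome 2, 61868089 to 61888804, minus strand). Its log2 ratio of -0.20, with a counting interval of -0.26 to -0.15, was the lowest of the family, and 8679 of 11990 tested genes had a higher one.

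On the side of weaker ATP binding, CCT7, CCT8 and CCT6A were near or slightly below the input, and CCT3 was not. CCT7, the eta subunit, had 227 FPKM in the RIP, against 222 FPKM in input RNA, for a log2 ratio of 0.03 (ENSG00000135624.15, chromosome 2, 73233420 to 73253021, plus strand). CCT8, the theta subunit, had 124 FPKM in the RIP, against 129 FPKM in input RNA, for a log2 ratio of -0.06 (ENSG00000156261.12, chromosome 21, 29055805 to 29073797, minus strand). CCT6A, the zeta subunit, had the lowest level in both libraries, with 101 FPKM in the RIP, against 116 FPKM in input RNA (ENSG00000146731.10, chromosome 7, 56051630 to 56063989, plus strand). Its log2 ratio was -0.19, with a counting interval of -0.25 to -0.14. Summed FPKM of the tighter-binding side was 809.7 in the RIP, against 798 in input RNA. That of the weaker-binding side, which includes CCT3, was 713 in the RIP, against 628 in input RNA. The median log2 ratio was 0.04 on the tighter-binding side and -0.02 on the weaker-binding side. This grouping was made after the values had been seen.

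**Figure D2:**
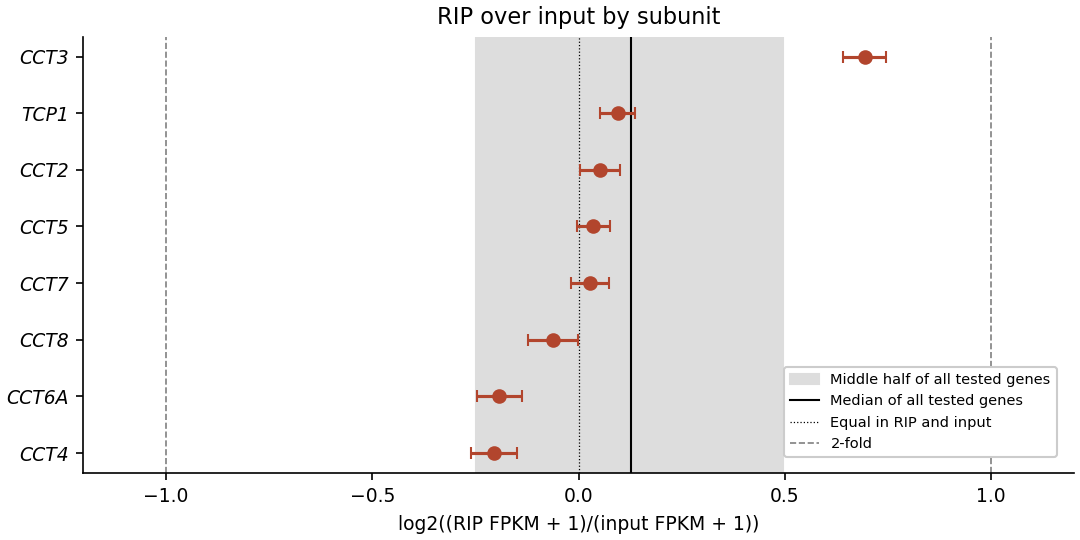
Log2 ratio of RIP over input (horizontal axis) for each subunit, with approximate 95% counting intervals. The grey band is the middle 50% of all tested genes, the solid line their median of 0.13 and the dashed lines mark 2-fold. CCT3 at 0.69 lies to the right of the band, and the other 7 subunits lie within it between -0.20 and 0.10.

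The order of the levels was largely kept between the libraries. In the RIP it ran from CCT5 through CCT3, CCT7, TCP1, CCT2, CCT8 and CCT4 to CCT6A. In the input it ran from CCT5 through CCT7, CCT2, TCP1, CCT3, CCT8 and CCT4 to CCT6A, so CCT3 held rank 2 in the RIP and rank 5 in the input. Of the 7 neighbouring pairs, TCP1 and CCT2 alone had overlapping counting intervals in the RIP. CCT4 and CCT6A were barely apart there, with a lower end of 103.8 FPKM for CCT4 and an upper end of 103.7 FPKM for CCT6A. The depths are estimates, so that separation is uncertain. In the input 3 pairs overlapped, CCT2 with TCP1, CCT8 with CCT4, and CCT4 with CCT6A. The highest subunit stood 2.96-fold above the lowest in the RIP, against 2.52-fold in input RNA. The coefficient of variation over the 8 was 38.7% in the RIP, against 33.5% in input RNA.

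As shares of the summed family FPKM, CCT3 made up 17.2% in the RIP, against 11.3% in input RNA, where an even share would be 12.5%. Among the other subunits the share of CCT4 differed most, by -1.61 percentage points, at 6.99% in the RIP, against 8.60% in input RNA. TCP1 took 13.4% in both libraries. The whole family summed to 1523 FPKM in the RIP, against 1427 FPKM in input RNA. Without CCT3 the sums were 1261 FPKM in the RIP, against 1266 FPKM in input RNA, so the surplus of the family sum in the RIP came from CCT3. Of summed FPKM of protein-coding genes the family held 0.288% in the RIP, against 0.306% in input RNA. Those coding sums include TOP3B, at 30666 FPKM in the RIP, against 15062 FPKM in input RNA, so the 2 percentages depend on its level.

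**Figure D3:**
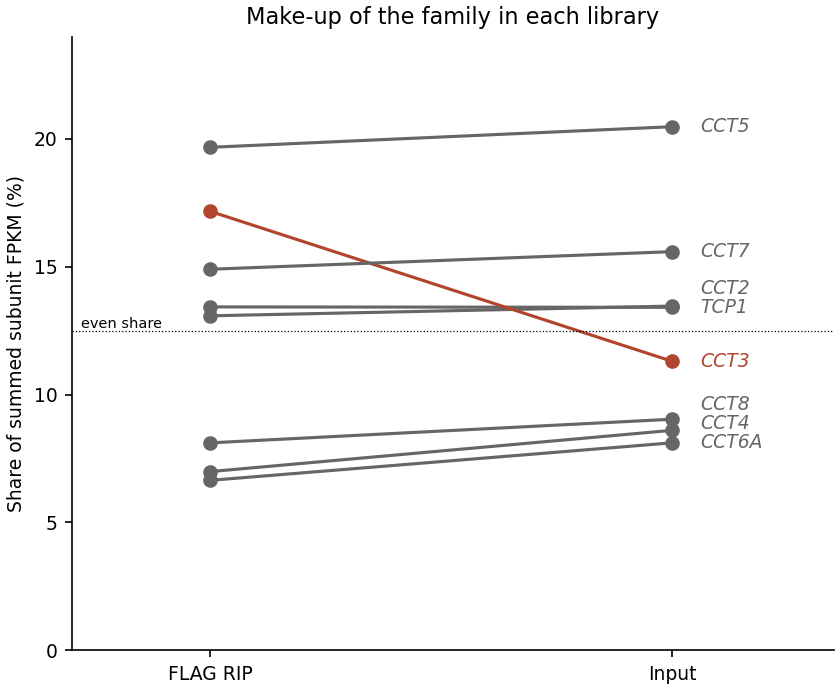
Share of the summed FPKM of the 8 subunits (vertical axis, percent) held by each subunit in the FLAG RIP and the input. Lines join the same subunit, CCT3 is in red, and the dotted line is an even share of 12.5%. CCT3 stands at 17.2% in the RIP, against 11.3% in input RNA, and the other lines are nearly level.

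All 8 mRNAs belonged to the abundant part of the transcriptome. Relative to the coding median of the same library they stood 4.85- to 14.3-fold up in the RIP, against 6.14- to 15.5-fold in input RNA. Among 10513 tested coding genes, CCT5 ranked 200 in the RIP, against 197 in input RNA. CCT6A ranked 773 in the RIP, against 521 in input RNA. The 414 other coding genes within the family's range of mean log2 level had a median log2 ratio of 0.24, 34 of them past 2-fold upwards in the RIP and 3 downwards. The 5 coding genes nearest to the family median in the plane of log2 RIP and log2 input were TARS, CDK16, PSMD4, TPM4 and SNRPD3, at distances of 0.06 to 0.12 log2 units, which over 2 libraries says only that their levels were alike. TARS, threonyl-tRNA synthetase, was the closest, at 201 FPKM in the RIP, against 183 FPKM in input RNA.

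**Figure D4:**
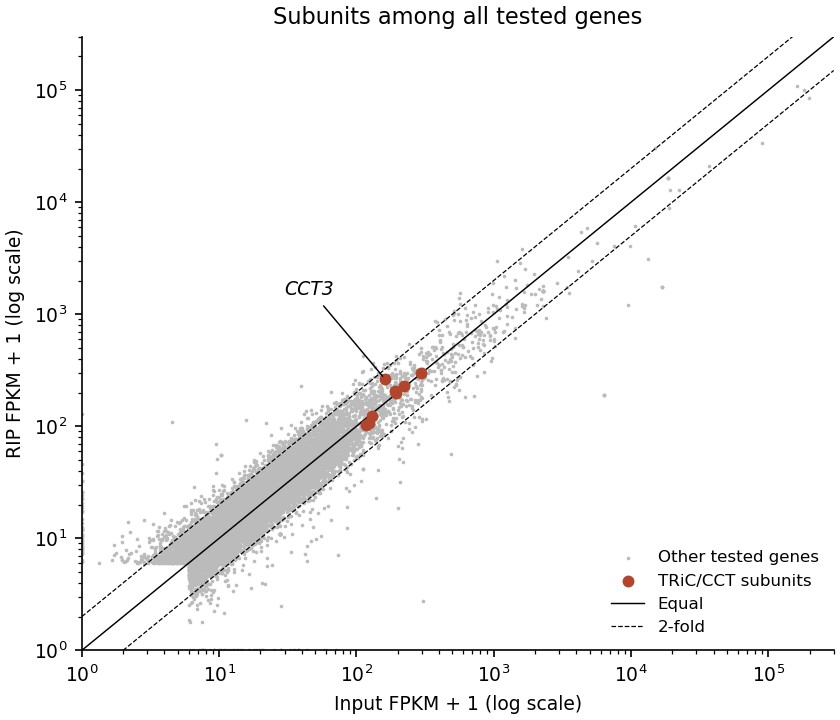
FPKM + 1 in the RIP (vertical, log scale) against FPKM + 1 in the input (horizontal, log scale) for all 11990 tested genes, with the 8 subunits in red. The solid line marks equal values and the dashed lines 2-fold. The subunits lie along the line of equal values in the upper part of the cloud, with CCT3 above it and inside the 2-fold line.

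The mRNAs of the subunits are similar in size and differ in base composition. The transcripts used here for length are 1858 to 2719 bases long and have 11 to 16 exons. Of these chosen transcripts, that of CCT3 is the shortest and that of CCT6A the longest. Their coding sequences are 1500 bases in CCT3 and 1509 in CCT5, against 1593 to 1668 in the rest. The choice admits forms with a shortened coding sequence. The length, GC content, shared stretches and estimated fragments of CCT3 rest on that choice. GC content was 49.9% in CCT3, 50.2% in CCT5 and 51.8% in CCT7, against 43.1% to 44.7% in the other 5. The annotation lists 16 transcripts for CCT3, 2 of them with a retained intron, and 4 to 18 for the others. The table gives 1 value per gene, so a change in the mix of transcripts cannot be told apart from a change in amount.

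Copies of the subunit genes could take or lend fragments. The transcripts of CCT2, CCT3, CCT4 and CCT7 held no 50-base stretch found, in the same sense, in a transcript of another annotated gene. Overlap with genes on the opposite strand was not part of that search. In TCP1 7.80%, in CCT5 5.08%, in CCT6A 6.67% and in CCT8 8.59% of 50-base stretches occurred in pseudogenes. The table gives values for 2 such pseudogenes, both copies of CCT6A on chromosome 7. CCT6P1 (ENSG00000228409.5) had 15.2 FPKM in the RIP, against 13.7 FPKM in input RNA, for a log2 ratio of 0.14. CCT6P3 (ENSG00000234585.6) had 9.98 FPKM in the RIP, against 8.47 FPKM in input RNA, for a log2 ratio of 0.21. With both added to CCT6A its share of the family was 8.16% in the RIP, against 9.52% in input RNA. This is above CCT4 and CCT8 in both libraries, CCT8 then holding 7.98% in the RIP, against 8.90% in input RNA. The place of CCT6A as the lowest subunit thus depends on leaving these copies out. The testis-linked paralog CCT6B (ENSG00000132141.13) had 4.25 FPKM in the RIP, against 4.03 FPKM in input RNA and did not reach the floor of 5 FPKM.

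A coding stretch of CCT6A is printed, chosen as the one most alike over all 3 relatives. It is the closest case and does not show how alike the whole genes are. Of the 50-base stretches of CCT6A, 4.01% occurred in CCT6P3 and 1.54% in CCT6P1. Capitals mark bases of CCT6B that differ from CCT6A.
CCT6A (chr7:56054378-56054437, plus strand): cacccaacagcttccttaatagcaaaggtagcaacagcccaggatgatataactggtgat
CCT6B (chr17:34958626-34958685, minus strand): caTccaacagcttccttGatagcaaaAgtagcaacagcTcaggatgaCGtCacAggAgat
CCT6P1 (chr7:65754536-65754595, plus strand) and CCT6P3 (chr7:65065008-65065067, plus strand) carry the 60 bases of CCT6A without a difference, whereas CCT6B differs at 9 of the 60.

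Small nucleolar RNAs, which guide base modification of other RNAs, lie inside TCP1 and CCT6A, in introns of the transcripts used here, and were lower in the RIP than their host mRNAs. SNORA20 (ENSG00000207392.1, chromosome 6, 159780250 to 159780381), inside TCP1, had 17.1 FPKM in the RIP, against 46.6 FPKM in input RNA, for a log2 ratio of -1.40. SNORA29 (ENSG00000206910.1, chromosome 6, 159785594 to 159785733), also inside TCP1, had 10.3 FPKM in the RIP, against 19.3 FPKM in input RNA, for a log2 ratio of -0.84. SNORA22B (ENSG00000206603.1, chromosome 7, 56055365 to 56055502), inside CCT6A, had 17.6 FPKM in the RIP, against 57.4 FPKM in input RNA, for a log2 ratio of -1.65. Relative to the ratio of the host mRNA, SNORA20 stood at -1.49, SNORA29 at -0.94 and SNORA22B at -1.46 log2 units. SNORA20 and SNORA29 also overlap exons of other annotated TCP1 transcripts. SNORA15, also inside CCT6A, was listed at 0 in both libraries. Over the 125 tested snoRNAs the median log2 ratio was -1.07, 63 of them past 2-fold downwards in the RIP and 14 upwards. SNORA29 lay above that median, and SNORA20 and SNORA22B lay below it. A ratio below 0 was common in the class, in 100 of the 125, so it was not particular to these 3 snoRNAs. The snoRNAs are shorter than the estimated mean fragment of 170 bases in the RIP and 168 bases in the input, so the fragments behind them could not be estimated.

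Genes on the opposite strand overlap exons of 4 subunits. ACAT2, which overlaps TCP1, had 59.1 FPKM in the RIP, against 76.0 FPKM in input RNA, for a log2 ratio of -0.36. COMMD1, which overlaps CCT4, had 19.6 FPKM in the RIP, against 18.1 FPKM in input RNA, for a log2 ratio of 0.11. TSACC overlaps CCT3, an antisense gene overlaps CCT4 and another CCT5, AF129075.1 lies in an intron of CCT8 on its own strand, and none of these had a value to analyse here. The library kit keeps strand, but whether strand was used in counting is not given in the sources used here. These neighbours were chosen after their values had been seen.

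Prefoldin, the 6-subunit complex that hands actin and tubulin chains to TRiC, had ratios below 0 in 4 of 6 subunits, where 41.2% of all tested genes lay below 0. Its median log2 ratio was -0.23, with 0 past 2-fold in either direction. PFDN1 had 35.1 FPKM in the RIP, against 58.8 FPKM in input RNA, for a log2 ratio of -0.73. VBP1 had 45.5 FPKM in the RIP, against 70.1 FPKM in input RNA, for a log2 ratio of -0.61. PFDN4 went the other way, with 110.6 FPKM in the RIP, against 72.7 FPKM in input RNA, for a log2 ratio of 0.60. The other log2 ratios were -0.36 for PFDN6, -0.09 for PFDN5 and 0.16 for PFDN2. The SD of log2 ratios was 0.50 over the 6 prefoldin genes, against 0.28 over the 8 subunits and 0.49 over all tested coding genes. Prefoldin mRNAs thus spread more widely than those of the chaperonin, but about as widely as coding genes at large. Without CCT3, dropped after the values had been seen, the SD was 0.12 over 7 subunits, while no prefoldin gene was dropped.

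Of the TRiC cofactors, PDCL3, a phosducin-like protein that binds the chaperonin with its clients, had 39.2 FPKM in the RIP, against 23.2 FPKM in input RNA, for a log2 ratio of 0.74. PDCL, which helps fold G protein beta subunits with TRiC, had 10.6 FPKM in the RIP, against 13.1 FPKM in input RNA, for a log2 ratio of -0.27. TXNDC9, a thioredoxin-like partner, had 23.8 FPKM in the RIP, against 28.2 FPKM in input RNA, for a log2 ratio of -0.24. PDCL3 was thus the only one of the 3 above the median gene.

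Relatives of the chaperonin family lay on both sides of equality. The mitochondrial chaperonin HSPD1 (HSP60) had 382 FPKM in the RIP, against 323 FPKM in input RNA, for a log2 ratio of 0.24. Its lid HSPE1 (HSP10) had 81.7 FPKM in the RIP, against 153 FPKM in input RNA, for a log2 ratio of -0.90. MKKS and BBS10, chaperonin-like proteins that act with TRiC in building the ciliary BBSome, had log2 ratios of -0.74 and -0.85. MKKS had 6.61 FPKM in the RIP, against 11.7 FPKM in input RNA, and BBS10 had 3.71 FPKM in the RIP, against 7.47 FPKM in input RNA, so both are low mRNAs whose ratio the added 1 FPKM shrinks. BBS12 is not among the genes analysed here. Of the 4 relatives tested, 3 were below 0, and the median was -0.79, with 0 past 2-fold. That median was -0.52 with a pseudocount of 5 FPKM and -0.33 with a floor of 20 FPKM, and after either scaling 1 relative was at least 2-fold lower.

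Client mRNAs lay on both sides of equality. Of 13 genes in the actin and tubulin list, which includes TUBGCP2, 8 had ratios above 0 and 5 below. That share was near the 58.7% above 0 among all tested genes, and 0 of the 13 genes were past 2-fold. Their median was 0.15, and -0.021 after rescaling to nuclear coding genes without TOP3B. ACTG1, cytoplasmic gamma-actin, had 946 FPKM in the RIP, against 734 FPKM in input RNA, whereas ACTB, cytoplasmic beta-actin, had 720 FPKM in the RIP, against 778 FPKM in input RNA. The ends of the list were TUBGCP2, a gamma-tubulin complex protein that is not itself a tubulin, at a log2 ratio of 0.84, and TUBA1B, an alpha-tubulin, at -0.26. Actin and tubulin genes have near-identical paralogs and pseudogenes, so their single values are uncertain. The client genes named here were picked after their values had been seen. Of 9 WD40-repeat clients 5 had ratios above 0 and 4 below, with a median of 0.03, which was -0.10 after centring and -0.14 after rescaling. FZR1, an activator of the anaphase-promoting complex, was the highest at 0.83, and STRAP, an SMN complex partner, the lowest at -0.55.

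The 6 tubulin folding cofactors, which act on tubulin after TRiC, had a median log2 ratio of 0.22, with 5 above 0 and 1 below, and of 0.092 after centring and 0.053 after rescaling. TBCD was highest with a log2 ratio of 0.52, TBCE and TBCA each had 0.30, ARL2 had 0.15 and TBCB 0.08, and TBCC lowest at 13.3 FPKM in the RIP, against 14.9 FPKM in input RNA. R2TP and prefoldin-like genes, whose products assemble RNA polymerases and other large complexes, had a median of 0.45, with 7 of 8 above 0, against 58.7% of all tested genes, and 6 of 8 above the median gene. That median was 0.28 after rescaling. RUVBL2, an AAA+ ATPase, had 124 FPKM in the RIP, against 65.9 FPKM in input RNA, for a log2 ratio of 0.90, and URI1, a prefoldin-like protein, had 70.3 FPKM in the RIP, against 41.8 FPKM in input RNA, for a log2 ratio of 0.74. RUVBL1, which forms a ring with RUVBL2, had a log2 ratio of 0.45, and UXT was lowest at -0.09. The log2 ratios of the other members were 0.51 for PDRG1, 0.45 for RPAP3, 0.18 for PIH1D1 and 0.02 for WDR92. Neither list had a member past 2-fold.

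The 20S proteasome core, another ring complex with fixed stoichiometry, was set beside the chaperonin. Of its 14 subunits 12 had ratios below 0 and 2 above, against 41.2% of all tested genes below 0, with a median of -0.29, and 0 were past 2-fold. That median was -0.46 after rescaling. PSMA7 was highest at 206 FPKM in the RIP, against 143 FPKM in input RNA, for a log2 ratio of 0.53, and PSMA4 lowest at 165 FPKM in the RIP, against 264 FPKM in input RNA, for a log2 ratio of -0.67. The SD of log2 ratios was 0.31 over the 14, close to the 0.28 of the 8 chaperonin subunits, while all tested coding genes had an SD of 0.49. Whether the complexes differ could not be tested with 1 library per group.

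**Figure D5:**
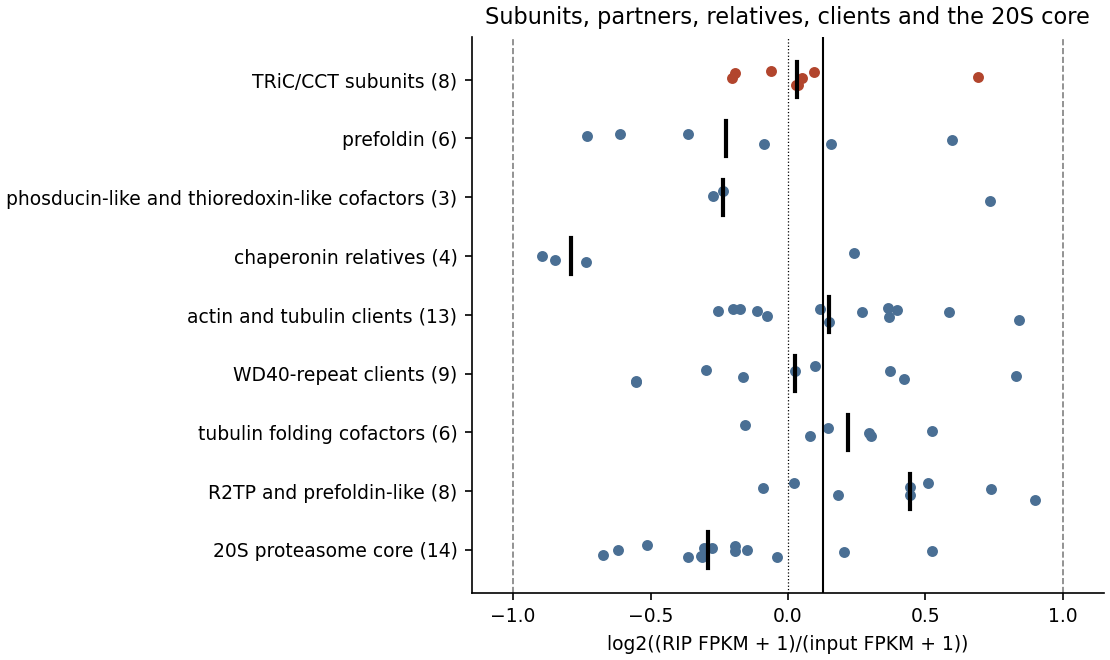
Log2 ratio of RIP over input (horizontal axis) for each tested gene of the chaperonin (red) and 8 lists of partners, relatives, clients and the 20S core (blue), with the number of tested genes in brackets. Black bars are list medians, the solid line is the median of all tested genes at 0.13 and dashed lines mark 2-fold. List medians run from -0.79 for chaperonin relatives to 0.45 for R2TP and prefoldin-like genes, with the chaperonin at 0.03 and no gene past 2-fold.

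For the libraries as a whole, the transcript of the bait TOP3B had 30666 FPKM in the RIP, against 15062 FPKM in input RNA, in which the transfected and chromosomal copies cannot be told apart. All 6 markers used for the HEK293 line were present (VIM, KRT8, KRT18, NEFM, NEFL and LIN28B), at 9.31 to 679 FPKM in the RIP and 10.7 to 544 FPKM in the input. Of 6 kidney tubule markers LRP2 alone had a value, at 5.49 FPKM in the RIP, against 1.96 FPKM in input RNA, and the 3 liver and 4 blood markers had none here. Summed FPKM was 1090240 in the RIP, against 1512050 in input RNA.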

How the data were processed

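The authors deposited 1 table with 1 value per gene and library. Its unit was taken as FPKM from the deposited values, whose sums exceed those of TPM or CPM. cutadapt 1.18, Trimmomatic 0.3, STAR 2.6.1, RSEM 1.2.31 and hg38 are named per the submitters' processing notes. The settings, the annotation release and any filter: not given in the sources used here. Groups came from the sample titles. Symbols were damaged in 55 rows, which entered the counts over all genes but no named result.

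Annotation was GENCODE 29 on GRCh38, matched by identifier without version for 12983 of 13075 genes (99.3%), of which 10965 matched with version. The length of a gene was that of the coding transcript of median length among those with at least 90% of its longest coding sequence. Fragment totals were estimated by searching, over genes with 1 transcript, for the depth that made FPKM values whole fragments. Within 0.15 of a whole fragment lay 63.3% of 259 RIP genes and 64.4% of 382 input genes, against 40.8% and 41.9% with lengths shuffled. The steps were tested on simulated data. The table holds no counts and groups of 1, so no count model and no test was used.

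The pseudocount was 1 FPKM, the floor 5 FPKM and the limit 2-fold. Every member, each copy or gene inside a member with a value and every listed partner was named, with the ends of the 20S list, the 5 nearest genes and the bait. Members and lists were chosen with earlier results of these data known. Alternatives were other pseudocounts, floors, limits and scalings. Python 3.11.15, numpy 2.4.6, pandas 2.3.3 and matplotlib 3.10.9 were used.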

Additional observations from a re-analysis of the deposited data

How the results depend on the processing

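No paired analysis was possible because the RIP and the input have 1 library each. No subunit passed 2-fold under any alternative pseudocount, floor or scaling, and no subunit ratio moved beyond its counting interval with another pseudocount or floor. Dropping CCT3, an alternative chosen after seeing the data, left the chaperonin median at 0.03. Both scalings shifted ratios downwards, by 0.13 log2 for centring on the median gene and by 0.17 (-0.17) for rescaling to nuclear coding genes without TOP3B, and 7 of 8 subunits were then below 0, with CCT3 at 0.57 and 0.52. The direction of TCP1, CCT2, CCT5 and CCT7 thus depended on the scaling.

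Centring gave medians of 0 for all genes, -0.10 for the chaperonin, -0.35 for prefoldin, -0.36 for the phosducin-like cofactors, -0.92 for chaperonin relatives, 0.020 for actin and tubulin clients, -0.10 for WD40-repeat clients, 0.092 for tubulin cofactors, 0.32 for R2TP and -0.42 for the 20S core, with 365 genes higher, 450 genes lower and 1 relative lower past 2-fold, so that lower genes then outnumbered higher ones, against 588 higher and 300 lower as reported. Rescaling gave, in the same order, -0.032, -0.14, -0.39, -0.40, -0.93, -0.021, -0.14, 0.053, 0.28 and -0.46, with 319 genes higher, 487 lower and 1 relative lower. A floor of 20 FPKM gave 352 genes higher, 157 lower and a median of 0.21, and medians of 0.25 for the phosducin-like cofactors, -0.33 for chaperonin relatives and 0.30 for tubulin cofactors. Fewer genes were tested there. Pseudocount 5 gave 300 genes higher and 180 lower. The median of chaperonin relatives was -0.52 with pseudocount 5, -0.86 with 0.1 and -0.74 with no floor.

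The 1.5-fold limit gave 2386 genes higher and 1222 lower. Among them were 1 chaperonin subunit higher, 1 prefoldin subunit higher and 2 lower, 1 phosducin-like cofactor higher and 3 relatives lower. In the actin and tubulin list 2 genes were higher, 1 of them TUBGCP2, which is not a tubulin. Other lists gave 1 WD40-repeat client higher, 2 R2TP genes higher and 2 proteasome subunits lower. The 4-fold limit gave 79 genes higher and 84 lower. Causes other than the changed limit, floor, pseudocount or scaling itself were not tested.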
